A study of Mus musculus with 47 samples.

Results

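Maxillary (Mx) and mandibular (Md) cranial neural crest cells without Ezh2 were compared at embryonic day E10.5. The comparison used 3 Mx Ezh2cKO libraries and 3 Md Ezh2cKO libraries, which are 6 of the 47 RNA-seq libraries of the series and were taken by the labels' subpopulation and genotype. The 2 Mx WT and 3 Md WT libraries of the same day served to ask whether the difference between the jaws had itself changed. Ezh2cKO denotes conditional deletion of Ezh2, and WT denotes wild type, in mouse embryos of the same age. Tissue was cut out by hand, dissociated and sorted by fluorescence before total RNA was extracted. The labels name neither the Cre driver nor the floxed allele, the strain or the mark used for sorting. They do not say whether replicates are separate embryos, pools or litters, so the spread between replicates that the p-values measure may be technical. That spread was estimated for each gene over all 47 libraries of the series, and not from the groups compared alone. The labels do not say whether WT carries the driver or the floxed allele, so an effect of either cannot be told apart from the loss of Ezh2.

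Cranial neural crest cells leave the neural folds, fill the first pharyngeal arch and build the skeleton of both jaws. The upper jaw forms largely from the maxillary process and the lower jaw from the mandibular process. Endothelin signalling through Ednra switches on Dlx5 and Dlx6 and, further distally, Hand2, and mandibular identity rests on these factors. Ezh2 is the main methyltransferase of Polycomb repressive complex 2 (PRC2), which keeps developmental genes silent by methylating lysine 27 of histone H3. In the first arch PRC2 holds the Hox clusters silent, and the crest of this arch is normally free of Hox expression.

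The 11 libraries held 18.8 to 35.7 M counts each (M, mega). Levels are given as CPM, counts per M counts of the library after TMM scaling. CPM are not divided by gene length, so they compare libraries and not genes. A difference is the log2 fold change of Mx over Md with its standard error (SE), and a gene was called at an adjusted p under 0.05 in edgeR's quasi-likelihood test. Ezh2 RNA (ENSMUSG00000029687, chromosome 6, 47530274 to 47595341) averaged 144 CPM in Mx Ezh2cKO and 131 CPM in Md Ezh2cKO, against 362 CPM in Mx WT and 354 CPM in Md WT. It fell by 1.33 ± 0.11 (log2) in Mx and by 1.43 ± 0.10 in Md relative to WT, and the Ezh2cKO jaws did not differ in it past the threshold (0.14 ± 0.10, adjusted p = 0.756). A count over the whole gene does not separate transcripts with and without the deleted part. Replicates of the mutant groups were not equally close. Over genes, the chi-square of counts divided by the degrees of freedom was 18.3 and 14.1 for Mx Ezh2cKO replicate 3 against replicates 1 and 2, which gave 5.70 between themselves. It was 10.4 to 17.1 for the pairs of Md Ezh2cKO, 6.58 for the Mx WT pair and 6.54 to 11.95 for the pairs of Md WT. Summed sex-linked RNA (Xist and Y genes) was 2614, 740 and 1590 CPM in Mx Ezh2cKO replicates 1 to 3 and 2542, 634 and 1792 CPM in Md Ezh2cKO replicates 1 to 3, so it differed between replicates and went with the replicate number in both jaws. The summed level of 15 sensory neuron markers was 681, 725 and 413 CPM in Mx Ezh2cKO replicates 1 to 3 and between 151 and 160 CPM in Md Ezh2cKO, against 572 and 525 CPM in Mx WT and 132 to 142 CPM in Md WT. These sums were higher in Mx than in Md in both genotypes, and lowest among the Mx libraries in replicate 3, and their part in the jaw differences was not tested. In bulk RNA, fewer cells of a type and less RNA per cell cannot be told apart.

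Both jaw markers differed between the jaws without Ezh2 in the direction seen in WT. Hand2 (ENSMUSG00000038193, chromosome 8, 57320983 to 57324517), a transcription factor of the distal mandible, had 0.948, 0.787 and 0.678 CPM in Mx Ezh2cKO and 38.0, 57.3 and 57.1 CPM in Md Ezh2cKO, against 0.399 and 0.0629 CPM in Mx WT and 67.6, 64.9 and 59.9 CPM in Md WT. The jaws did not overlap in either genotype, and the difference in Ezh2cKO was -5.98 ± 0.31 (adjusted p = 1.8e-17). A lack of overlap between so few libraries is common, and 19% of all genes tested showed it in Ezh2cKO and 34.4% in WT. Lhx6 (ENSMUSG00000026890, chromosome 2, 36081950 to 36105408), a LIM-homeodomain factor of oral mesenchyme in both jaws, had 108, 98.2 and 119 CPM in Mx Ezh2cKO and 55.2, 57.0 and 56.1 CPM in Md Ezh2cKO, against 152 and 151 CPM in Mx WT and 84.5, 74.6 and 61.1 CPM in Md WT. It was higher in Mx Ezh2cKO without overlap (0.95 ± 0.19, adjusted p = 0.000631), by about the difference seen in WT (1.04).

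Of 12 distal and oral mandibular regulators, 10 were lower and 1 was higher in Mx Ezh2cKO than in Md Ezh2cKO, with a median log2 difference of -2.69. Across all 20560 genes tested, 5.94% were called in this comparison, 3.79% higher and 2.15% lower, and the median was -0.02. In WT the same 12 genes had 10 lower and none higher, with a median of -4.42, where 6.61% of all genes were called, 3.97% higher and 2.64% lower. Hand1, a partner of Hand2, had 0.618, 0.219 and 0.264 CPM in Mx Ezh2cKO and 53.7, 68.0 and 76.4 CPM in Md Ezh2cKO, against 0.372 and 0.126 CPM in Mx WT and 86.7, 64.7 and 69.2 CPM in Md WT. It showed the largest drop of the list (-7.48 ± 0.40). The interaction, which tests whether the Mx over Md difference changed between Ezh2cKO and WT, did not pass for Hand1 (0.66 ± 0.81, adjusted p = 1.00) or Hand2 (2.04 ± 0.62, adjusted p = 0.299). Dlx5, which with Dlx6 specifies the lower jaw, had 27.2, 28.5 and 34.6 CPM in Mx Ezh2cKO and 102, 117 and 122 CPM in Md Ezh2cKO, against 20.2 and 21.5 CPM in Mx WT and 170, 148 and 137 CPM in Md WT. Its difference was -1.91 ± 0.15, against -2.86 in WT, and the change between them missed the threshold (0.95, adjusted p = 0.053). Nkx3-2, a factor of the jaw joint, was lower in Mx Ezh2cKO (-2.76 ± 0.56), as were Dlx4 (-4.08 ± 0.25) and Foxf1 (-2.05 ± 0.19). Gata3 was the member that was higher in Mx Ezh2cKO, with 23.8, 21.1 and 26.3 CPM against 11.7, 12.2 and 15.2 CPM in Md Ezh2cKO (0.86 ± 0.20, adjusted p = 0.00352). Msx2, a target of BMP signalling, was not called (0.31 ± 0.17, adjusted p = 0.505).

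**Figure D1:**
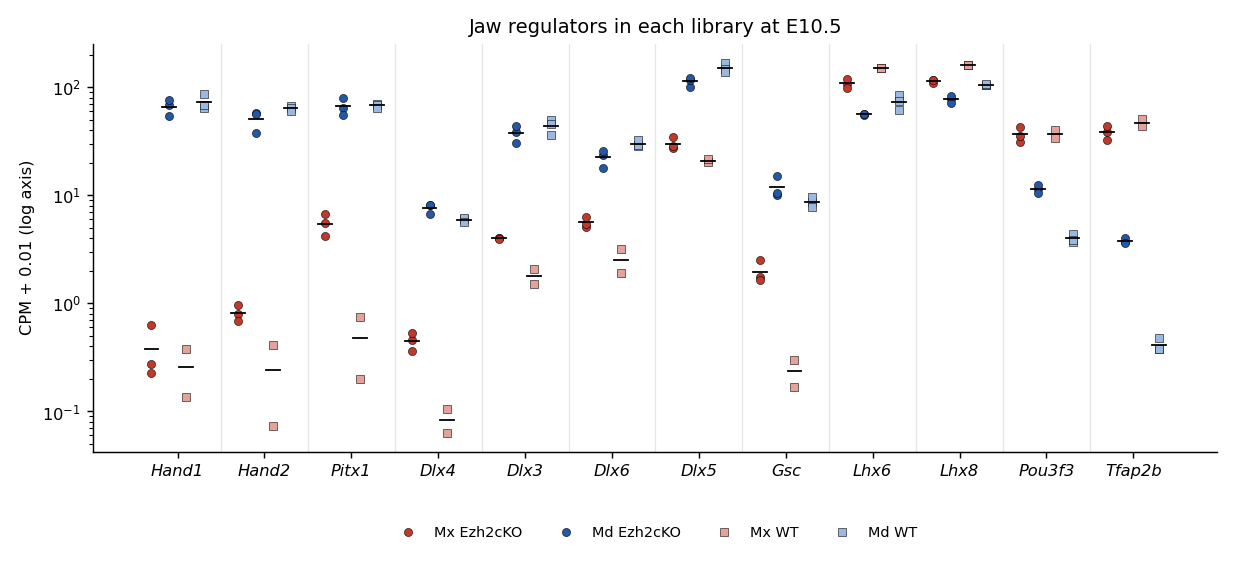
Level of 12 jaw regulators in each library (points, CPM plus 0.01 on a log axis) for Mx Ezh2cKO, Md Ezh2cKO, Mx WT and Md WT. Hand1 and Hand2 stay under 1 CPM in every Mx library, while Pitx1 lies at 4.22 to 6.68 CPM in Mx Ezh2cKO and at 0.744 and 0.189 CPM in Mx WT.

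Among 14 maxillary and proximal arch regulators, 6 were higher and 2 were lower in Mx Ezh2cKO, with a median of 0.34, and 6 and 3 in WT with a median of 0.21. The POU factor Pou3f3, needed in mouse for proximal jaw elements, had 31.2, 35.3 and 43.2 CPM in Mx Ezh2cKO and 11.4, 12.5 and 10.46 CPM in Md Ezh2cKO, against 34.1 and 39.9 CPM in Mx WT and 4.41, 3.71 and 3.87 CPM in Md WT. It was higher in Mx in both genotypes (1.67 ± 0.17 in Ezh2cKO). Its level in Md Ezh2cKO lay above that of every Md WT library while the Mx levels overlapped between genotypes. The Iroquois factors Irx3 (0.91 ± 0.18) and Irx5 (0.97 ± 0.18) and Lhx8 (0.56 ± 0.17), the close relative of Lhx6, were also higher in Mx Ezh2cKO. The orphan nuclear receptor Nr2f2 was lower (-0.58 ± 0.12), and Gbx2, a homeobox factor, was lower as well (-1.02 ± 0.23). Gbx2 lost its call in edgeR without Md Ezh2cKO replicate 3 (adjusted p = 0.0632). Nr2f1, Meis2, Jag1, Tbx22, Shox2 and Sim2 were not called, and their differences ran from -0.48 to 0.35.

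Regulators used in both jaws had a median difference nearer to 0. Of 10, 3 were higher and 2 lower in Mx Ezh2cKO, the same counts as in WT, with a median of -0.13 against 0.08 in WT. Tfap2a (AP-2 alpha, a crest factor) was higher by 1.40 ± 0.17, the homeobox factor Prrx2 by 1.00 ± 0.13 and Pax9, needed for teeth and palate, by 0.79 ± 0.11. Barx1, a factor of molar tooth mesenchyme, was lower (-0.61 ± 0.17). Dlx1, Dlx2, Msx1, Prrx1 and Twist1 were not called. Barx1 lost its call without any 1 of 4 of the 6 libraries compared (adjusted p up to 0.196).

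In all, 1222 of 20560 genes differed between Mx Ezh2cKO and Md Ezh2cKO, 780 higher and 442 lower in Mx. In WT, 1359 differed, 816 higher and 543 lower. Called in both genotypes were 859 genes, which is 70.3% of the Ezh2cKO calls and 63.2% of the WT calls, and 858 of them had the same direction. The Ezh2cKO and WT contrasts share no library. The exception was Adamts9, a secreted protease, chosen here after its values were seen, at -0.35 in Ezh2cKO and 0.58 in WT. Of the 363 genes called in Ezh2cKO alone, 5 passed the test of the difference between genotypes, and of the 500 called in WT alone 16 did.

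A set of 320 jaw genes was then taken from WT alone (called, at least 1 on the log2 scale and at least 5 CPM in the higher jaw) and read in Ezh2cKO. Of the 190 that were higher in Mx WT, 175 (92.1%) were called higher in Mx Ezh2cKO, where 3.79% of all genes were. These 190 include neuron and glia genes, such as Neurod1, Nefm, Sox10 and Erbb3, and their part in this share was not tested. Of the 130 that were lower in Mx WT, 114 (87.7%) were called lower in Mx Ezh2cKO, where 2.15% of all genes were. None was called in the opposite direction. The median difference of the higher set was 1.46 in Ezh2cKO and 1.83 in WT, and that of the lower set was -1.11 in Ezh2cKO and -1.67 in WT. The median ratio of the Ezh2cKO to the WT difference was 0.771 in the higher set and 0.659 in the lower set. Genes chosen for a large value in WT tend to read smaller elsewhere, so the choice was turned round. Of 185 and 97 genes chosen the same way in Ezh2cKO, 166 and 86 were called the same way in WT, and their median ratio of the WT to the Ezh2cKO difference was 1.09 and 1.29. In either choice, the larger median difference lay in WT. In the test of each gene, 14 of the 190 and 21 of the 130 WT jaw genes had a smaller difference in Ezh2cKO and none had a larger one. That test uses the WT values that chose the genes, so the choice favours smaller differences in Ezh2cKO. The choice made in Ezh2cKO favours larger ones. Of its 185 and 97 genes, 11 and 14 had a smaller difference in Ezh2cKO, and 3 and 0 had a larger one.

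**Figure D2:**
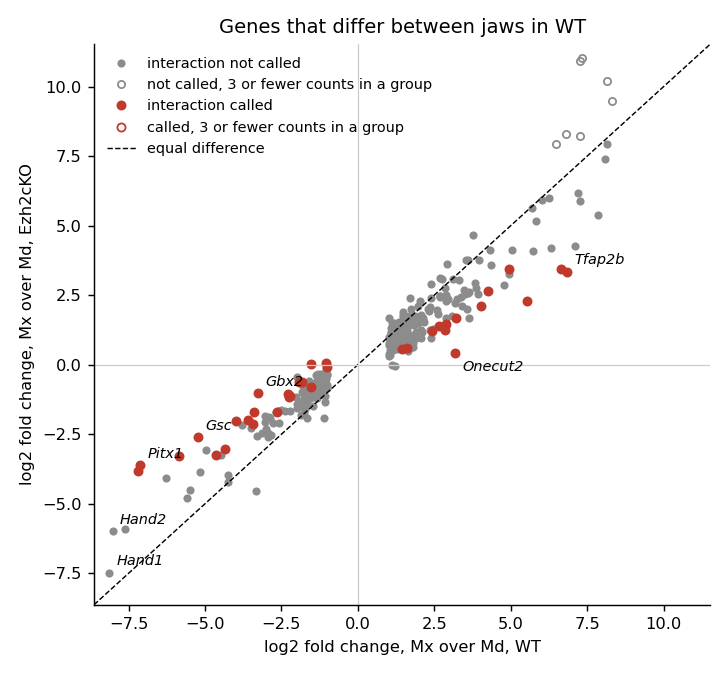
Log2 difference of Mx over Md in WT (horizontal) and Ezh2cKO (vertical) for the 320 WT jaw genes, with the line of equal difference. Red points are the 35 genes whose difference changed in the interaction test, open points have 3 or fewer counts in a group, and most points lie in the lower left and upper right corners.

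Tested across all genes, the Mx over Md difference changed between genotypes for 59 genes, or 0.287%, and 812 genes had an unadjusted p under 0.05. Those 812 are a smaller share of the genes tested than the 0.05 that no change at all would give on average. A gene that did not pass may still have changed. For 54 of the 59 the difference was smaller in Ezh2cKO. The interaction is made from the same values as the Ezh2cKO against WT differences of both jaws. The counts that follow therefore only describe which jaw moved and are no separate support. Over all genes, 6.85% were called higher and 3.41% lower in Mx Ezh2cKO than in Mx WT, whatever their call in Md. In Md Ezh2cKO against Md WT, 6.69% were called higher and 2.18% lower (8.87% in all), whatever their call in Mx. Of the 32 genes whose difference moved up, 24 were called higher in Mx Ezh2cKO than in Mx WT and were not called in Md. Of the 27 whose difference moved down, 16 were called higher in Md Ezh2cKO than in Md WT and were not called in Mx. The count rests on few libraries, and without Mx WT replicate 2 it was 6 up and 11 down, and without Mx WT replicate 1 it was 17 up and 11 down. Without Md WT replicate 3 the number down was 15, and the number up was 18 without Mx Ezh2cKO replicate 1 and 21 without Md Ezh2cKO replicate 1.

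Among genes that rose in Mx without Ezh2 were mandibular regulators, 4 of the 12 in the distal list (Dlx3, Dlx6, Gsc and Pitx1, and 1 of them without Mx WT replicate 2 or 2 without Mx WT replicate 1). Pitx1, a homeobox factor of the mandible and hindlimb, had 6.68, 5.51 and 4.22 CPM in Mx Ezh2cKO and 63.7, 79.9 and 55.9 CPM in Md Ezh2cKO, against 0.744 and 0.189 CPM in Mx WT and 70.7, 68.4 and 64.5 CPM in Md WT. Its level rose in Mx by 3.48 ± 0.51 and did not change past the threshold in Md (-0.03 ± 0.28), so the difference between the jaws was -3.61 in Ezh2cKO and -7.12 in WT (interaction 3.51 ± 0.59, adjusted p = 0.000995). Mx Ezh2cKO stayed well below Md Ezh2cKO. Goosecoid (Gsc), a homeobox factor of the mandible, had 1.73, 2.54 and 1.62 CPM in Mx Ezh2cKO and 10.1, 15.2 and 10.6 CPM in Md Ezh2cKO, against 0.292 and 0.157 CPM in Mx WT and 8.70, 7.72 and 9.71 CPM in Md WT. It rose in Mx by 3.07 ± 0.38 and its interaction was 2.60 ± 0.43. The interaction calls of Pitx1 and Gsc were both lost without Mx WT replicate 2 (adjusted p = 0.0579 each). Dlx6 had 5.07, 5.46 and 6.29 CPM in Mx Ezh2cKO and 23.8, 18.0 and 25.8 CPM in Md Ezh2cKO, against 1.91 and 3.15 CPM in Mx WT and 28.6, 29.3 and 32.5 CPM in Md WT (interaction 1.58 ± 0.25, adjusted p = 0.000576). Dlx3 rose in Mx by 1.17 ± 0.25 with an interaction of 1.39 ± 0.30. Dlx6as1 overlaps the Dlx5 and Dlx6 locus and its interaction was 1.98 ± 0.24, but the libraries were unstranded, so its reads and those of an overlapping gene cannot be told apart. Gbx2 rose in Mx by 1.08 ± 0.29 and fell in Md by 1.18 ± 0.22, with an interaction of 2.26 ± 0.36. Pcp4l1 stood at 0.371 CPM in Mx Ezh2cKO and 3.62 CPM in Md Ezh2cKO, against 0.0871 CPM in Mx WT and 5.18 CPM in Md WT, on 6 counts in Mx WT, and its call was lost in 10 of 17 alternatives.

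Genes that rose in Md without Ezh2 included several that were higher in Mx than in Md in WT. AP-2 beta (Tfap2b), a factor of the frontonasal and maxillary crest, had 38.6, 44.1 and 32.2 CPM in Mx Ezh2cKO and 3.65, 4.02 and 3.59 CPM in Md Ezh2cKO, against 50.3 and 43.6 CPM in Mx WT and 0.467, 0.371 and 0.371 CPM in Md WT. It rose in Md by 3.20 ± 0.38, did not change past the threshold in Mx (-0.29 ± 0.21), and its difference was 3.34 in Ezh2cKO and 6.84 in WT (interaction -3.50 ± 0.44, adjusted p = 8.25e-06). Tfap2a had 11.1, 12.9 and 13.7 CPM in Md Ezh2cKO and 6.79, 5.12 and 4.77 CPM in Md WT (interaction -1.24 ± 0.25). The interaction of Pou3f3 was -1.54 ± 0.26. Onecut2, a homeodomain factor of neurons and liver, had 62.4, 62.1 and 43.3 CPM in Mx Ezh2cKO and 42.9, 41.7 and 41.5 CPM in Md Ezh2cKO, against 21.8 and 19.2 CPM in Mx WT and 2.67, 1.94 and 2.23 CPM in Md WT. It rose in both jaws, by 1.45 ± 0.19 in Mx and 4.2 ± 0.21 in Md. The Ezh2cKO jaws did not differ past the threshold (0.41 ± 0.17, adjusted p = 0.192), though their libraries did not overlap. With only the 11 libraries of Mx and Md, edgeR called the difference (0.43, adjusted p = 0.0353). The same held for Onecut2 without Mx Ezh2cKO replicate 3 (0.57, adjusted p = 0.044). Its relative Onecut1 (interaction -3.25 ± 0.62), the GDNF coreceptor Gfra1 (-1.93 ± 0.38) and the sialyltransferase St8sia3 (-1.94 ± 0.40) also rose in Md, and St8sia3 rose in Mx as well (1.46). The interaction call was lost in 5 of 17 alternatives for St8sia3 (adjusted p up to 0.0875) and in 2 for Onecut1 (up to 0.0529), and for Tfap2a with replicate number as a block and without Mx WT replicate 1 or 2 or Md WT replicate 3. The sums of the neuron markers in Md were 151 to 160 CPM in Ezh2cKO and 132 to 142 CPM in WT, and their part in these results was not tested.

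In all, 5 genes had a larger absolute difference in Ezh2cKO. They were Chst15 (0.75 in Ezh2cKO and -0.01 in WT), Sorbs2 (1.14 and 0.10), Erg (0.80 and -0.77) and 2 of the tested copies of the small nuclear RNA 7SK (1.61 and -0.45, and 1.42 and -0.53). They were named after their values were seen, apart from the first 7SK copy. 7SK has many near-identical copies, so its values are uncertain, and the call of the first copy was lost in 7 of 17 alternatives (adjusted p up to 0.157).

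**Figure D3:**
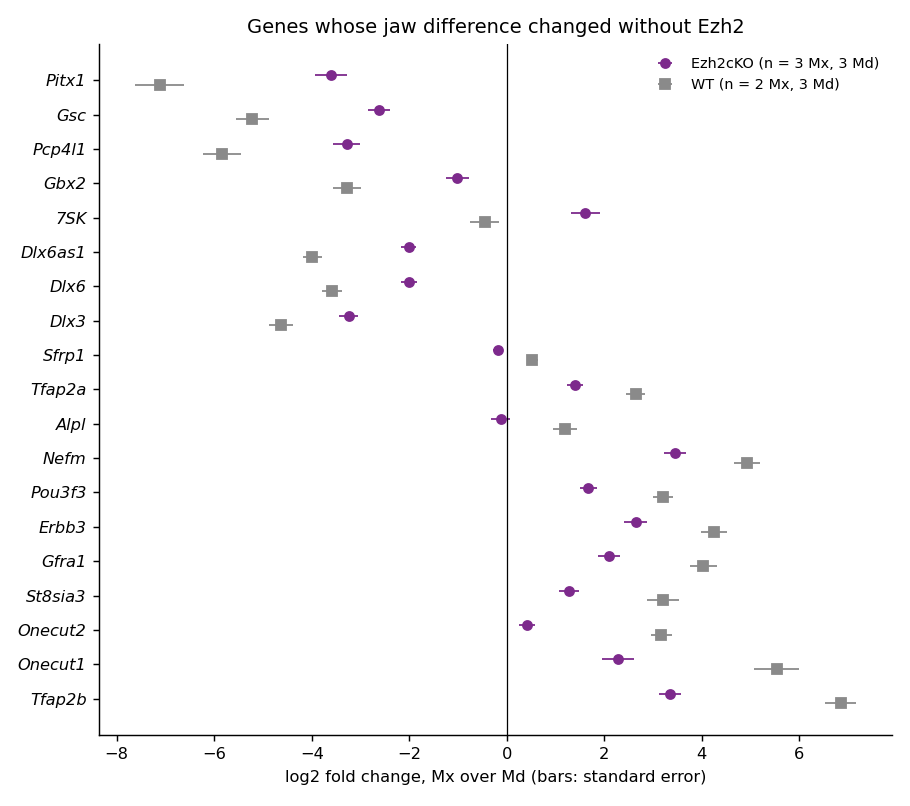
Log2 difference of Mx over Md with its SE in Ezh2cKO and in WT for 19 named or listed genes whose difference changed. For Pitx1, Gsc and Tfap2b the Ezh2cKO value lies nearer to 0 than the WT value and on the same side of it.

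The promoters of Gsc and Tfap2b are shown because their genes rose in opposite jaws, and that of Hoxa13 because it differed between the mutant jaws (0.264 to 0.743 CPM in Mx Ezh2cKO, 3.23 to 6.18 CPM in Md Ezh2cKO). Each window runs from 250 bases before to 50 after a gene start of RefSeq (GRCm38.p6), 5′ to 3′ on the gene's strand, with CG dinucleotides in capitals. CG reads the same on both strands and matches do not overlap. Unmethylated CG-rich DNA is the usual site of Polycomb binding in mammals. Gsc is chr12:104473187-104473486 on the minus strand, Tfap2b is chr1:19211804-19212103 on the plus strand and lies inside the gene as the table draws it, and Hoxa13 is chr6:52260831-52261130 on the minus strand.
Gsc: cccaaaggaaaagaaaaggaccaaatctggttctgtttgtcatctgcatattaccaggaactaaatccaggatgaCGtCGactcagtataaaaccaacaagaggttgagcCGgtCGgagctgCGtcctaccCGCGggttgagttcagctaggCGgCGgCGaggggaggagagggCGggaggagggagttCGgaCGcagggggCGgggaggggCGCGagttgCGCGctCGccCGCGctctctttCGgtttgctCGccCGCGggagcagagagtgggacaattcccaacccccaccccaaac
Tfap2b: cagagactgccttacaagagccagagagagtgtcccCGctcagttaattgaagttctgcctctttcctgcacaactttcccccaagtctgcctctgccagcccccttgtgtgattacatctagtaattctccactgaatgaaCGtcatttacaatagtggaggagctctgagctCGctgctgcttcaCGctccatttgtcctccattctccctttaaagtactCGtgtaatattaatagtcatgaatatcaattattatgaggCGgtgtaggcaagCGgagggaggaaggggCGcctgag
Hoxa13: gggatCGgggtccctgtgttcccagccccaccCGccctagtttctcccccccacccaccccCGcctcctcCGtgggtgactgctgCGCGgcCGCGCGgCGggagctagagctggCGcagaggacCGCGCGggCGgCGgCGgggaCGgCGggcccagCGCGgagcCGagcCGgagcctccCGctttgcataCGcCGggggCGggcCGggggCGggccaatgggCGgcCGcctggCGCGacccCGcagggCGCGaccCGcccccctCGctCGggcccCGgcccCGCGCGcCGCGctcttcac
The Gsc window holds 25 CG, and 18.4% of 32851 RefSeq windows of this length hold at least as many. The Tfap2b window holds 8 (48.7% of windows) and the Hoxa13 window 45 (1.93% of windows). The count describes these letters and says nothing of binding in these cells. A comparison of promoter composition between gene sets was void, since 55.9% of tested genes matched a RefSeq window.

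The posterior Hox genes, which place cells along the trunk, differed between the mutant jaws. In WT, 24 of 27 had 0 counts in both jaws, and their sum did not pass 0.0629 CPM in any library. Their sum was 81.7, 68.3 and 34.5 CPM in Mx Ezh2cKO and 155, 149 and 89.5 CPM in Md Ezh2cKO. The Md sums lay above the Mx sums without overlap. Of the 27 genes, 8 were called lower in Mx Ezh2cKO and none higher, with a median of -1.26, and 23 had a lower mean there. Hoxa13 had 0.659, 0.743 and 0.264 CPM in Mx Ezh2cKO and 6.18, 5.03 and 3.23 CPM in Md Ezh2cKO (-3.13 ± 0.46, adjusted p = 3.52e-05). Hoxa11 (-3.22 ± 0.57), Hoxb9 (-2.49 ± 0.49), Hoxa9 (-1.87 ± 0.53), Hoxa10 (-1.57 ± 0.33), Hoxc13 (-1.34 ± 0.40), Hoxa7 (-1.12 ± 0.34) and Hoxc5 (-1.05 ± 0.29) were the other members called. No posterior HoxD gene was called. Hoxd13, at 18.0, 15.7 and 8.93 CPM in Mx Ezh2cKO and 14.6, 13.3 and 10.3 CPM in Md Ezh2cKO, overlapped between the jaws (0.15 ± 0.28), and the 6 posterior HoxD genes ran from -0.12 to 0.58. Without Mx Ezh2cKO replicate 2 or 3 or Md Ezh2cKO replicate 1 or 2, each left out in turn, the 8 calls became 4, and DESeq2 made 4. Hoxa9 and Hoxa11 were not called by DESeq2. Since both WT groups are at or near 0 counts, the interaction test could not place the jaw difference of these genes against WT.

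**Figure D4:**
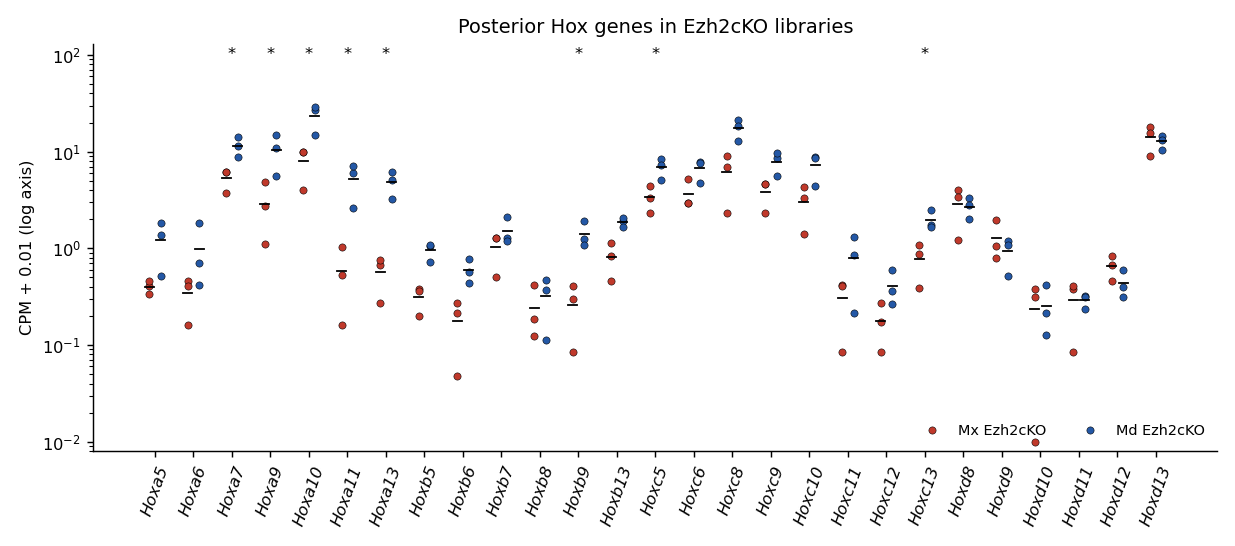
Level of 27 posterior Hox genes (CPM per library, log axis) in Mx Ezh2cKO and Md Ezh2cKO, ordered by cluster. Stars mark the 8 genes called lower in Mx. The HoxA genes from Hoxa9 to Hoxa13 are higher in each Md library than in each Mx library, and the HoxD genes overlap.

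The anterior Hox genes, active in the hindbrain and the more posterior arches, showed a smaller difference of the same kind. Their sum was 26.5, 21.5 and 13.7 CPM in Mx Ezh2cKO and 37.4, 34.3 and 25.6 CPM in Md Ezh2cKO, against at most 0.160 CPM in Mx WT and 0.509 CPM in Md WT. The ranges of the jaws overlapped, and at each replicate number the Md sum was the higher. Of 12 genes, 2 were called lower in Mx Ezh2cKO and none higher, with a median of -0.35, or -0.53 without the member at or under 3 counts in both jaws. Without Mx Ezh2cKO replicate 3 or Md Ezh2cKO replicate 1 none was called, without Mx replicate 2 or Md replicate 2 of Ezh2cKO 1 was, and without Mx Ezh2cKO replicate 1 it was 3. Hoxa2, the selector of the second arch, had 4.25, 3.06 and 1.24 CPM in Mx Ezh2cKO and 8.21, 7.46 and 3.59 CPM in Md Ezh2cKO, which overlap although Md was higher at each replicate number (-1.20 ± 0.28, adjusted p = 0.0038), and the other was Hoxa3 (-1.31 ± 0.35). Each lost its call without Mx Ezh2cKO replicate 3 (adjusted p = 0.0800 and 0.165). Each also lost it when edgeR was fitted to only the groups compared (adjusted p = 0.114 and 0.163). With only the 11 libraries of Mx and Md, Hoxa3 was not called (adjusted p = 0.102).

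Among genes with at least 5 CPM in the higher jaw, no overlap and a gene name (not a Gm, Rik or clone name), the 10 most raised in Mx over Md in Ezh2cKO were Prdm12, Ppp1r17, Neurod4, Cdhr1, Myt1, Sst, Ppp1r1c, Neurod1, Nhlh1 and St18. Prdm12, a zinc-finger factor of pain-sensing neurons, had 8.94, 10.8 and 5.61 CPM in Mx Ezh2cKO and 0 counts in Md Ezh2cKO, which makes it at least 187-fold higher against 3 counts over the Md group. Ppp1r17, an inhibitor of protein phosphatases, was at least 173-fold higher by the same floor. The neurogenic factor Neurod4 had 961 counts in Mx Ezh2cKO and 1 in Md Ezh2cKO, which is 881-fold (158 to 34820 as the 95% interval of counting error). Neurod1 had 46.9, 47.9 and 16.0 CPM in Mx Ezh2cKO and 0.135, 0.116 and 0.205 CPM in Md Ezh2cKO, against 34.3 and 27.4 CPM in Mx WT and at most 0.170 CPM in Md WT. The somatostatin gene Sst had 17.1, 18.2 and 8.18 CPM in Mx Ezh2cKO and 3 counts in Md Ezh2cKO. That the Mx libraries all stood above Md for these genes was a condition of the choice. Among the Mx libraries, replicate 3 was lowest each time.

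Of the 15 sensory neuron markers, 13 were higher in Mx Ezh2cKO (median 3.59) and 14 in Mx WT (median 4.36). With members at 0 counts in a jaw set to their bound and those at or under 3 counts in both jaws left out, the medians were 3.59 in Ezh2cKO and 4.18 in WT. The same step moved some other medians of thinly counted lists, and these are given beside them as bounded medians. The neurofilament gene Nefm had 135, 164 and 71.9 CPM in Mx Ezh2cKO and 11, 12.9 and 10.0 CPM in Md Ezh2cKO, against 85.6 and 80.6 CPM in Mx WT and 2.80, 2.76 and 2.60 CPM in Md WT, and its difference was smaller in Ezh2cKO (interaction -1.48, adjusted p = 0.035). With 1 library left out, no sensory neuron marker passed the interaction test if that library was one of the WT libraries, Mx Ezh2cKO replicate 1 or 3, or Md Ezh2cKO replicate 1 or 2. Of 10 markers of glia and early crest, 8 were higher in Mx Ezh2cKO (median 2.42) and 9 in Mx WT (median 3.66). Their sum was 120, 115 and 79.0 CPM in Mx Ezh2cKO and 35.7 to 40.7 CPM in Md Ezh2cKO, against 174 and 158 CPM in Mx WT and 34.0 to 35.3 CPM in Md WT. The glial receptor Erbb3 had 15.8, 13.3 and 7.38 CPM in Mx Ezh2cKO and 1.98, 2.28 and 1.49 CPM in Md Ezh2cKO, against 26.8 and 22.6 CPM in Mx WT and 1.15, 1.82 and 0.849 CPM in Md WT (interaction -1.60 ± 0.36, adjusted p = 0.0296), a call lost in 9 of 17 alternatives. Sox10, the master factor of crest glia, was higher in Mx Ezh2cKO by 2.87 ± 0.32.

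By the same conditions, the 10 genes most reduced in Mx relative to Md in Ezh2cKO were Hand1, Hand2, Klf14, Apob, Gpr50, Zcchc5, Dio2, Dlx4, Sdpr and Pitx1. Klf14, an imprinted zinc-finger gene, had 1.36, 0.656 and 0.678 CPM in Mx Ezh2cKO and 24.3, 30.1 and 20.6 CPM in Md Ezh2cKO, against 0.133 and 0.157 CPM in Mx WT and 8.06, 6.97 and 6.47 CPM in Md WT. It rose with Ezh2 loss in both jaws, by 2.60 ± 0.49 in Mx and 1.80 ± 0.21 in Md, and the jaws stayed far apart. Apob, which encodes a lipoprotein component, had 0.783, 0.918 and 0.942 CPM in Mx Ezh2cKO and 23.8, 19.4 and 19.1 CPM in Md Ezh2cKO, against 0.798 and 0.629 CPM in Mx WT and 6.2, 8.5 and 7.32 CPM in Md WT. It rose in Md by 1.5 ± 0.20 and did not change past the threshold in Mx (0.29 ± 0.36). Its difference was -4.55 ± 0.25 in Ezh2cKO and -3.35 in WT, and that change did not pass the test (adjusted p = 0.57). The orphan receptor Gpr50 had 3.30, 3.10 and 4.26 CPM in Mx Ezh2cKO and 65.0, 78.5 and 97.4 CPM in Md Ezh2cKO (-4.49 ± 0.23). Dio2, which activates thyroid hormone, differed by -4.22 ± 0.33 in Ezh2cKO and by -4.24 in WT.

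Hedgehog targets were lower in Mx in both genotypes. Of 9 tested of 10 listed, 8 were lower in Mx Ezh2cKO (median -0.78) and 8 in WT (median -1.26). The hedgehog receptor gene Ptch1, a direct target, had 113, 111 and 105 CPM in Mx Ezh2cKO and 188, 172 and 171 CPM in Md Ezh2cKO, against 113 and 105 CPM in Mx WT and 196, 185 and 161 CPM in Md WT. The jaws did not overlap and the differences were close (-0.69 ± 0.17 in Ezh2cKO, -0.72 in WT). Hhip, which binds hedgehog ligand, differed by -1.10 ± 0.25, and the forkhead genes Foxf1, Foxd2 and Foxf2 by -2.05 ± 0.19, -0.99 ± 0.23 and -0.81 ± 0.21. Foxd1 was the member not called in Ezh2cKO, with 17.8, 18.2 and 18.8 CPM in Mx Ezh2cKO and 21.6, 22.5 and 25 CPM in Md Ezh2cKO, against 5.98 and 7.30 CPM in Mx WT and 17.3, 14 and 17.5 CPM in Md WT. No member passed the interaction test. Without Mx Ezh2cKO replicate 3 or Md Ezh2cKO replicate 2 there were 5 lower members.

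Of 17 Notch pathway genes, 8 were higher in Mx Ezh2cKO (median 0.91) and 9 in WT (median 1.41), and none was lower. The target Heyl had 16.7, 19.6 and 15.3 CPM in Mx Ezh2cKO and 2.66, 2.36 and 2.67 CPM in Md Ezh2cKO, against 42.0 and 35.3 CPM in Mx WT and 3.69, 2.23 and 1.96 CPM in Md WT (2.75 ± 0.25 in Ezh2cKO). The targets Hey2 (1.53 ± 0.29), Hey1 (0.91 ± 0.15) and Nrarp (1.97 ± 0.39), the receptor Notch1 (0.62 ± 0.14) and the ligands Dll1 (3.06 ± 0.49) and Dll3 (3.24 ± 0.51) were higher as well. The glycosyltransferase Mfng had 200 counts in Mx Ezh2cKO and 3 in Md Ezh2cKO, which is 61.1-fold (20.6 to 299 as the 95% interval of counting error). Dll1, Dll3 and Mfng are also genes of neural progenitors and neurons, whose markers moved the same way, and the part of those cells in the Notch result was not tested.

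Of 13 retinoic acid genes, 6 were higher and 1 was lower in Mx Ezh2cKO (median 0.29), and 6 and 1 in Mx WT (median 0.62). Cyp26a1, which degrades retinoic acid, had 12, 11.4 and 13.1 CPM in Mx Ezh2cKO and 1.53, 1.90 and 1.38 CPM in Md Ezh2cKO, against 7.66 and 9.56 CPM in Mx WT and 1.57, 1.98 and 1.38 CPM in Md WT (2.91 ± 0.26). Cyp26c1, of the same family, was higher by 3.62 ± 0.51. Aldh1a2, which makes retinoic acid, went the other way, with 10.2, 11.1 and 7.46 CPM in Mx Ezh2cKO and 27.7, 27.7 and 19.2 CPM in Md Ezh2cKO (-1.38 ± 0.24). Its WT values were 7.52 and 8.65 CPM in Mx and 12.7, 13.2 and 11.3 CPM in Md, a difference of -0.62 that was not called. Crabp1, Dhrs3, Rarb and Aldh1a3 were the other members higher in Mx Ezh2cKO, and Aldh1a3 lost its call in 9 of 18 alternatives. The number higher was 2 without Md Ezh2cKO replicate 3, 3 without Md Ezh2cKO replicate 1 and 4 without Mx Ezh2cKO replicate 1 or 3.

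Of 9 endothelin pathway genes, 2 were higher and 2 lower in Mx Ezh2cKO (median -0.09), and 2 and 0 in WT (median -0.0042, bounded -0.07). The receptor Ednra had 121, 112 and 96.4 CPM in Mx Ezh2cKO and 172, 159 and 133 CPM in Md Ezh2cKO, against 108 and 98.6 CPM in Mx WT and 141, 128 and 128 CPM in Md WT (-0.49 ± 0.13, adjusted p = 0.00874). The endothelin-converting enzyme Ece1 was lower (-0.59 ± 0.16). The receptor Ednrb, a marker of glial and pigment precursors, was higher by 2.95 ± 0.29, and the effector Mef2c by 0.57 ± 0.13. The ligand gene Edn1, which the arch epithelium expresses, was at 0 to 0.135 CPM in every library. Leaving out any 1 of the 6 Ezh2cKO libraries left 1 lower member. Ednra was not called without Mx Ezh2cKO replicate 3 (adjusted p = 0.0944) or Md Ezh2cKO replicate 1 (adjusted p = 0.0906).

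BMP, FGF and Wnt genes gave mixed directions. Of 17 BMP genes, 2 were higher and 3 lower in Mx Ezh2cKO (median -0.02), against 1 and 4 in WT (median -0.09). The ligand Bmp7 had 39.9, 38.2 and 43.8 CPM in Mx Ezh2cKO and 19, 18.3 and 17.2 CPM in Md Ezh2cKO (1.16 ± 0.17). The antagonist Grem1 had 11.9, 10.3 and 5.58 CPM in Mx Ezh2cKO and 4.87, 5.03 and 2.56 CPM in Md Ezh2cKO (1.14 ± 0.26), against 2.39 and 1.64 CPM in Mx WT and 2.67, 1.69 and 2.92 CPM in Md WT. The ligand Bmp2 (-0.69 ± 0.18), the receptor Bmpr1b (-0.45 ± 0.10) and the decoy receptor Bambi (-0.59 ± 0.16) were lower. Without Mx Ezh2cKO replicate 1 or Md Ezh2cKO replicate 3, Grem1 and Bambi were not called, nor was Bambi without Mx Ezh2cKO replicate 2 or Bmp2 without Mx Ezh2cKO replicate 3 or Md Ezh2cKO replicate 1. The 4 lower members in WT became 0 without Mx WT replicate 1 and 2 without Mx WT replicate 2. Of 15 FGF genes, the ligand Fgf18 was higher (1.78 ± 0.36) and the receptor Fgfr2 lower (-0.37 ± 0.08), with a median of 0.08, against 2 and 1 in WT with a median of 0.16.

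Of 18 Wnt genes, 3 were higher and 2 lower in Mx Ezh2cKO (median -0.09), against 6 and 4 in WT (median 0.05). The agonist Rspo3 had 42.5, 37.6 and 37.8 CPM in Mx Ezh2cKO and 15.4, 16.9 and 13.9 CPM in Md Ezh2cKO (1.35 ± 0.15), and its relative Rspo2 had 14.3, 13.1 and 11 CPM and 21.0, 22 and 26.2 CPM in the same groups (-0.85 ± 0.16). The antagonist Wif1 was higher (1.94 ± 0.26) and Dkk2 lower (-0.78 ± 0.19). The ligand Wnt5a was higher by 0.35 ± 0.10. Sfrp1, a secreted Wnt antagonist, had 184, 179 and 210 CPM in Mx Ezh2cKO and 213, 234 and 207 CPM in Md Ezh2cKO, against 204 and 193 CPM in Mx WT and 146, 127 and 141 CPM in Md WT. It differed between the WT jaws (0.52) and not past the threshold between the Ezh2cKO jaws (-0.19 ± 0.10), and the change passed the test (-0.71), though not without Mx WT replicate 1 or 2.

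Of 8 frontonasal regulators, 5 were higher and 1 lower in Mx Ezh2cKO (median 1.16), against 4 and 1 in WT (median 1.09, bounded 1.46). Pax3, a paired factor of early crest, had 46.2, 43.0 and 37.1 CPM in Mx Ezh2cKO and 14.3, 10.48 and 8.41 CPM in Md Ezh2cKO (1.93 ± 0.18). Its relative Pax7 was higher by 4.48 ± 0.67 and Six2 by 1.45 ± 0.21. Alx1, needed for the midface, was higher by 0.87 ± 0.18. Zic1 had at most 1 library with counts in WT, and 9.40, 6.91 and 3.65 CPM in Mx Ezh2cKO and 10.4, 10.8 and 6.15 CPM in Md Ezh2cKO, which overlap.

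Of 25 tested regulators of other lineages, 4 were higher and 3 lower in Mx Ezh2cKO (median 0.18, bounded -0.0033), against 5 and 1 in WT, where 13 were at or under 3 counts in both jaws. Tbx15, a T-box factor of limb and head mesenchyme, had 76.0, 69.8 and 62.2 CPM in Mx Ezh2cKO and 41.4, 34.4 and 26.8 CPM in Md Ezh2cKO, against 5.34 and 8.74 CPM in Mx WT and 2.89, 2.43 and 2.71 CPM in Md WT. It rose by 3.31 ± 0.21 in Mx and by 3.68 ± 0.20 in Md relative to WT. The jaw difference was 1.02 ± 0.16 in Ezh2cKO and 1.39 in WT, and the interaction did not pass (-0.37, adjusted p = 1.00). Lhx2 and the B-cell and neural factor Ebf1 were higher by 1.39 ± 0.21 and 1.51 ± 0.12, and Gata2 by 0.87 ± 0.17. The kidney and ear factor Pax2 was lower (-2.34 ± 0.38), as were the heart factors Tbx20 (-1.56 ± 0.37) and Tbx5 (-1.16 ± 0.28).

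Of 15 cartilage and bone genes, 3 were higher and 4 lower in Mx Ezh2cKO (median -0.13, bounded 0.0014), against 4 and 3 in WT (median 0.08, bounded 0.11). The cartilage collagen Col9a1 had 38.5, 46.6 and 42.6 CPM in Mx Ezh2cKO and 77.8, 86.2 and 95.4 CPM in Md Ezh2cKO, against 34.7 and 38.0 CPM in Mx WT and 106, 96.2 and 112 CPM in Md WT (-1.02 ± 0.17). Runx2, the master factor of bone, was higher by 0.59 ± 0.17 and Sox5 by 0.53 ± 0.10, while Col11a1 (-0.36 ± 0.11), Runx3 (-1.16 ± 0.33) and the bone factor Sp7 (-0.98 ± 0.27) were lower. Ibsp, a bone matrix protein, had 20 counts in Mx Ezh2cKO and 0 in Md Ezh2cKO, at least 6.11-fold higher, and lost its call in 6 of 17 alternatives. Without Mx Ezh2cKO replicate 1 or 3 or Md Ezh2cKO replicate 1 or 2, each left out in turn, 1 member was lower, and without Md Ezh2cKO replicate 2 or 3, 1 was higher. Alkaline phosphatase (Alpl) had 4.57, 4.24 and 5.24 CPM in Mx Ezh2cKO and 5.28, 4.68 and 5.44 CPM in Md Ezh2cKO, against 3.56 and 3.43 CPM in Mx WT and 1.74, 1.16 and 1.70 CPM in Md WT. Its jaw difference of 1.20 in WT was not seen in Ezh2cKO (-0.13 ± 0.20; interaction -1.32, adjusted p = 0.045), a call lost when any 1 of the 11 libraries other than Mx Ezh2cKO replicate 3 was left out, and with replicate number as a block.

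Of 7 cell-cycle inhibitors, 2 were lower in Mx Ezh2cKO (median -0.19) and 1 in WT (median -0.02, bounded -0.26). They were Cdkn1c, an imprinted inhibitor, with 210, 195 and 191 CPM in Mx Ezh2cKO and 285, 354 and 283 CPM in Md Ezh2cKO (-0.63 ± 0.15), and Cdkn2b (-1.21 ± 0.34). Without Mx Ezh2cKO replicate 2 or 3 or Md Ezh2cKO replicate 1 or 2, 1 of them was called. Cdkn2a, a well-known Polycomb target, had 0 counts in WT and 0.165, 0.175 and 0.0377 CPM in Mx Ezh2cKO and 0.632, 0.464 and 0.308 CPM in Md Ezh2cKO, and missed the threshold (-1.90 ± 0.61, adjusted p = 0.0771). None of 11 PRC2 components was called in either genotype, with medians of -0.07 and -0.03, and their Ezh2cKO differences ran from -0.29 to 0.14. At an unadjusted p under 0.05, edgeR picked 0 of them in Ezh2cKO and 1 in WT, and DESeq2 called none in either genotype.

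None of 10 tested epithelial, 7 erythroid, 5 leukocyte and 5 sex-linked markers was called in Ezh2cKO or in WT by edgeR or DESeq2. At an unadjusted p under 0.05, edgeR picked 1 leukocyte marker in Ezh2cKO, and 1 epithelial and 1 erythroid marker in WT. Summed levels were 8.06 to 8.53 CPM in Mx Ezh2cKO and 8.0 to 11.8 CPM in Md Ezh2cKO for epithelium, 181 to 337 CPM and 179 to 302 CPM for erythroid genes and 9.38 to 10.51 CPM and 8.72 to 11.3 CPM for leukocytes. Of 10 endothelial markers, Flt1 was higher in Mx Ezh2cKO (2.30 ± 0.26), with 4.90, 5.11 and 3.16 CPM against 1.13, 0.890 and 0.615 CPM in Md Ezh2cKO. Pecam1, Cdh5, Kdr and Tek were not called there. In WT, 1 of the 10 endothelial markers was lower in Mx and none was higher. With a library left out, the number lower in WT was 0 or 1. Of 11 markers of cranial mesoderm and muscle, 3 were higher in Mx in Ezh2cKO and in WT, and Myod1, Myog and Myf5, which define muscle, stayed under 0.2 CPM in every library. Among the higher members were Lhx2, also in the list of other lineages, and Actc1 (3.53 ± 0.61), a muscle actin.

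**Figure D5:**
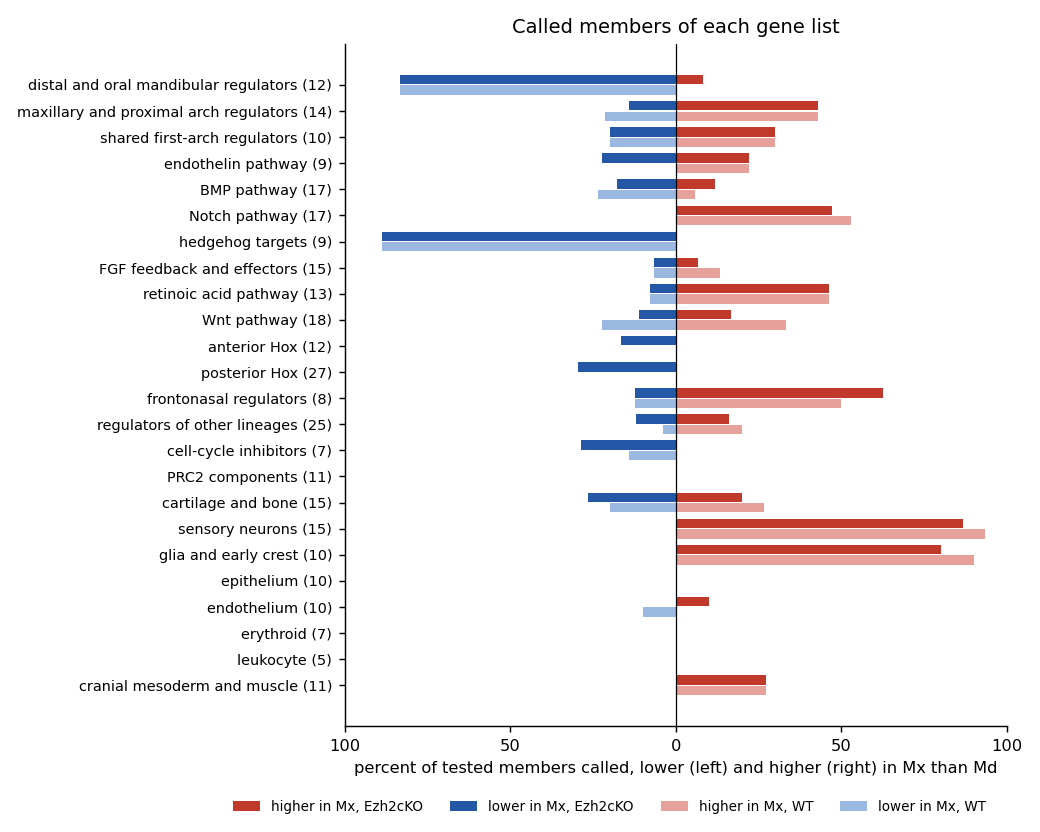
Percent of tested members of each gene list called higher (right) or lower (left) in Mx than in Md, in Ezh2cKO and in WT. Sensory neuron and glia lists are mostly higher and distal regulators and hedgehog targets mostly lower in both genotypes, and the posterior Hox list has called members in Ezh2cKO alone.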

How the data were processed

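Per the labels' protocols, RNA from sorted cells was made into unstranded libraries, pooled by 3 barcoded samples and read as single 50-base ends. The submitters' processing notes name bcl2fastq 2.17 and GRCm38/mm10. The sources used here name no aligner, counter or annotation. The authors deposited raw counts per gene for 38215 genes. The deposited file repeats 22 of its columns with identical values, and the first copy was used.

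All 47 libraries were fitted in one model of group means with edgeR 4.0.16 (R 4.3.3), after filterByExpr (minimum count 10, total 15) and TMM scaling. This left 20560 genes and 31 residual degrees of freedom. Adjusted p-values are Benjamini-Hochberg over all genes tested, and the SE is the log2 fold change divided by the square root of F. The scripts were tested on simulated data. DESeq2 1.42.0 and the other alternatives are described in the closing section. Bounds for genes with 0 counts in a group use 3 counts over the group, and 95% intervals of ratios cover counting error only. In all, 4004 genes share a symbol with another identifier.

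Genes known by a Gm, Rik or clone name were left out of the naming rules. Genes named from the Ezh2cKO contrast were called, had at least 5 CPM in the higher jaw, at least 1 on the log2 scale and no overlap, and the 10 largest each way were taken. Each list gave at most 4 named genes, those called with the largest fold, and from the interaction the 6 largest each way. From the WT jaw genes the 4 of largest fold each way were taken. Ezh2, Lhx6 and Hand2 were always named, and other members were named after their values were seen. The members and lists were chosen with earlier results of these data known. Some genes are not reported here.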

Additional observations from a re-analysis of the deposited data

Results flagged for a closer look

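The Mx over Md difference of 19 named or listed genes differed between Ezh2cKO and WT by the interaction test of edgeR. The change is the log2 difference in Ezh2cKO minus that in WT. Among genes higher in Mx than in Md in WT, it was -3.50 for Tfap2b, -3.25 for Onecut1, -2.76 for Onecut2, -1.94 for St8sia3 and -1.93 for Gfra1. It was -1.60 for Erbb3, -1.54 for Pou3f3, -1.48 for Nefm, -1.32 for Alpl, -1.24 for Tfap2a and -0.71 for Sfrp1. Among genes lower in Mx than in Md in WT, it was 3.51 for Pitx1, 2.60 for Gsc, 2.55 for Pcp4l1, 2.26 for Gbx2, 1.98 for Dlx6as1, 1.58 for Dlx6 and 1.39 for Dlx3. The 7SK copy, which did not differ past the threshold between the WT jaws, had a change of 2.06, and its call was lost in 7 of 17 alternatives.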

How the results depend on the processing

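The number of genes with a changed jaw difference, 32 up and 27 down, was 54 and 44 with no filter on low counts and 55 and 41 with DESeq2. With replicate number as a block, the numbers were 23 and 17, and with mitochondrial genes left out they were 33 and 27. Leaving out mitochondrial genes gave 588 genes lower in Mx Ezh2cKO than in Mx WT, against 702 in the main fit. Same-numbered Mx and Md Ezh2cKO libraries had correlations of 0.214, -0.0396 and 0.0972, and 1 of 3 Mx libraries correlated best with its own number, so they were not treated as pairs. Sex-linked sums went with the number, a hint from the data and not from the labels, and under the block 9 posterior and 2 anterior Hox genes were called lower in Mx Ezh2cKO. Genes lower in Ezh2cKO than in WT were 303 in Mx and 244 in Md with no filter, and 702 in Md with only the 11 libraries. Genes lower in Mx WT were 869 with only the groups compared. At a fold threshold of 2 (log2), the WT jaw genes were 86 and 48, called the same way in 98.8% and 100%. Leaving out a replicate gave 597 to 818 genes higher and 322 to 436 lower in Mx Ezh2cKO than in Md Ezh2cKO, and 529 to 820 higher and 342 to 548 lower in Mx WT than in Md WT. It gave 6 to 39 up and 11 to 28 down in the interaction, 598 to 1440 higher and 124 to 688 lower in Mx Ezh2cKO than in Mx WT, and 981 to 1397 higher and 196 to 457 lower in Md Ezh2cKO than in Md WT. The WT jaw genes were then 185 to 195 and 124 to 138, with 88.9% to 93.0% and 79.2% to 87.9% called the same way. Without one Mx WT library the other is assumed to vary like the rest. The cause of these shifts was not tested. Among the named genes followed through the alternatives, no called result reversed its direction, while some uncalled genes near 0 changed sign. The other called genes were not followed 1 by 1. Lists in WT moved too. Without Mx replicate 1 the retinoic acid list had 3 higher and 0 lower, the FGF list 1 and 1, the shared first-arch list 2 and 1, and the frontonasal list 3 and 2. Without Mx replicate 2 the retinoic acid list had 4 and 0, the FGF list 1 and 1, and the shared list 2 and 1. Without Md replicate 1 the retinoic acid list had 5 and 0 and the shared list 3 and 1. Without Md replicate 3 the FGF list had 1 and 2 and the shared list 3 and 1. The lower member among other lineages was lost without Mx replicate 1 or 2 or Md replicate 3.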
